A study of Mus musculus with 12 samples.

Results

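Messenger RNA of the ATF4 pathway, the arm of the stress response that answers a shortage of amino acids, was followed in cultured mouse skin cells. The genes were chosen by name: 40 genes of the ATF4 and CHOP pathway, of amino acid synthesis and of amino acid transport, each read from its brightest probe set. Of the 40, 37 had a probe set with 1 gene symbol and all 37 passed the filter on dim genes, out of 13153 genes tested in all. Slc6a9 shares its probe set with another gene, and it, Pycr1 and Gdf15 are not analysed here.

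The cells were skin-derived precursors (SKPs), which come from the dermis and form free-floating spheres in culture, from mice aged 9 months whose strain is given as CD57/Bl6. Cells were plated at 50000 per ml in serum-free medium with EGF (20 ng/ml), the growth factor FGF2 (40 ng/ml) and the supplement B27 (2%), and secondary spheres were made for each condition. There were 4 groups of 3 arrays, each from a separate isolate. By the sample titles, SKPs were prepared from uninjured skin treated with vehicle. The other titles name wounded skin treated with vehicle, trimebutine maleate (a drug of gut motility) or alprostadil (prostaglandin E1). The titles do not settle whether the skin or the cultured cells received the treatment. Not given in the sources used here were doses, times, the skin site and whether animals were pooled. Levels are log2 values, on which a step of 1 is a 2-fold change in signal.

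When amino acids run short, or when unfolded protein builds up in the endoplasmic reticulum, kinases phosphorylate the initiation factor eIF2. General translation then slows while the ATF4 protein is made at a higher rate from an mRNA with upstream reading frames, so Atf4 mRNA and ATF4 protein need not move together. ATF4 pairs with other basic leucine zipper factors and switches on genes that import amino acids, make serine, asparagine and one-carbon units, and charge tRNAs. Dermal fibroblasts draw on the same enzymes and transporters when they make collagen, a protein rich in glycine and proline. Only RNA was measured here.

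Many target genes carry a composite element for a C/EBP and an ATF protein. The letters TGATGNAA were searched on both strands of the RefSeq promoters (build GRCm38.p6), each 250 bases before to 50 after the annotated start, and no other motif was searched. Of the 40 genes 35 were in the table, and 11 of them (31.4%) held the letters, against 4.51% of 27025 genes of the table. A gene with several annotated starts counted once if any of its promoters held them. The list was chosen by name from a pathway whose targets are known for this element, so the higher share is not a test. The 6 windows below are those of measured genes with 1 annotated start and a match that lies wholly before it. They are shown so that the flanking bases and the place of the match can be read in genes of several branches of the pathway. Capitals mark the match, and each line is written 5′ to 3′ on the strand of the gene.
Asns (chr6:7693210-7693252, minus strand): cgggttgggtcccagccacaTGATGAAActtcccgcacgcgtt
Atf3 (chr1:191183416-191183463, minus strand): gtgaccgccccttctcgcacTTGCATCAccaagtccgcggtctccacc
Chac1 (chr2:119351029-119351076, plus strand): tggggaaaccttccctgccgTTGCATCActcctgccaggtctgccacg
Fgf21 (chr7:45615602-45615649, minus strand): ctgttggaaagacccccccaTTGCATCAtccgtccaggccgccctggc
Nupr1 (chr7:126625553-126625600, minus strand): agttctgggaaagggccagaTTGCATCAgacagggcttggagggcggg
Slc7a11 (chr3:50443633-50443699, minus strand): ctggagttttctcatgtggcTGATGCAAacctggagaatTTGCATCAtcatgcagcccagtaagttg

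In 4 of the 6 windows the match is TTGCATCA, the reverse complement of TGATGCAA. Slc7a11 has both orientations, and Asns has TGATGAAA. The matches of Trib3 and Slc1a4 lie in or across the transcribed part, Jdp2 and Vldlr have several annotated starts, and Pycr1 was not measured, so these 5 are named only. A match is a description of letters, not a bound site. Among the measured genes in the table, the letters were in 7 of the 22 that followed the array order described below and in 3 of the 10 that did not.

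The arrays carried the markers of dermal cells. All 7 dermal fibroblast markers, Pdgfra, Fn1 and Col1a1 among them, lay above the array median on all 12 arrays. Of the SKP markers Snai2 and Twist1 were also above it throughout, Nes (nestin) reached at most 7.12 and Sox2 at most 5.61, below the array median on all 12 arrays. Array medians ran from 6.57 to 6.74. Wound alprostadil replicate 1 stood apart in macrophage markers: Ctss was 12.97 there and at most 8.66 elsewhere. In bulk RNA a change in the number of cells of a type and a change in RNA per cell cannot be told apart.

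Most of the 37 genes were high and low on the same arrays, and these arrays cut across the groups. In 27 of the 37 the same 6 arrays were the 6 highest: uninjured vehicle replicate 3, wound vehicle replicates 1 and 2, wound trimebutine replicate 1, and wound alprostadil replicates 1 and 2. This order was picked out from the values themselves and is given as a description with no test. The same order held for 6.36% of all genes tested. The median over the 37 genes of the level minus the mean of each gene was 0.28, 0.31, 0.30, 0.33, 0.38 and 0.35 on those arrays, in the order named. On the other 6 it was -0.43 and -0.25 (uninjured vehicle 1 and 2), -0.27 (wound vehicle 3), -0.35 and -0.44 (wound trimebutine 2 and 3) and -0.083 (wound alprostadil 3). Each group thus held at least 1 array of either kind, and the treated groups were split like the untreated.

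**Figure D1:**
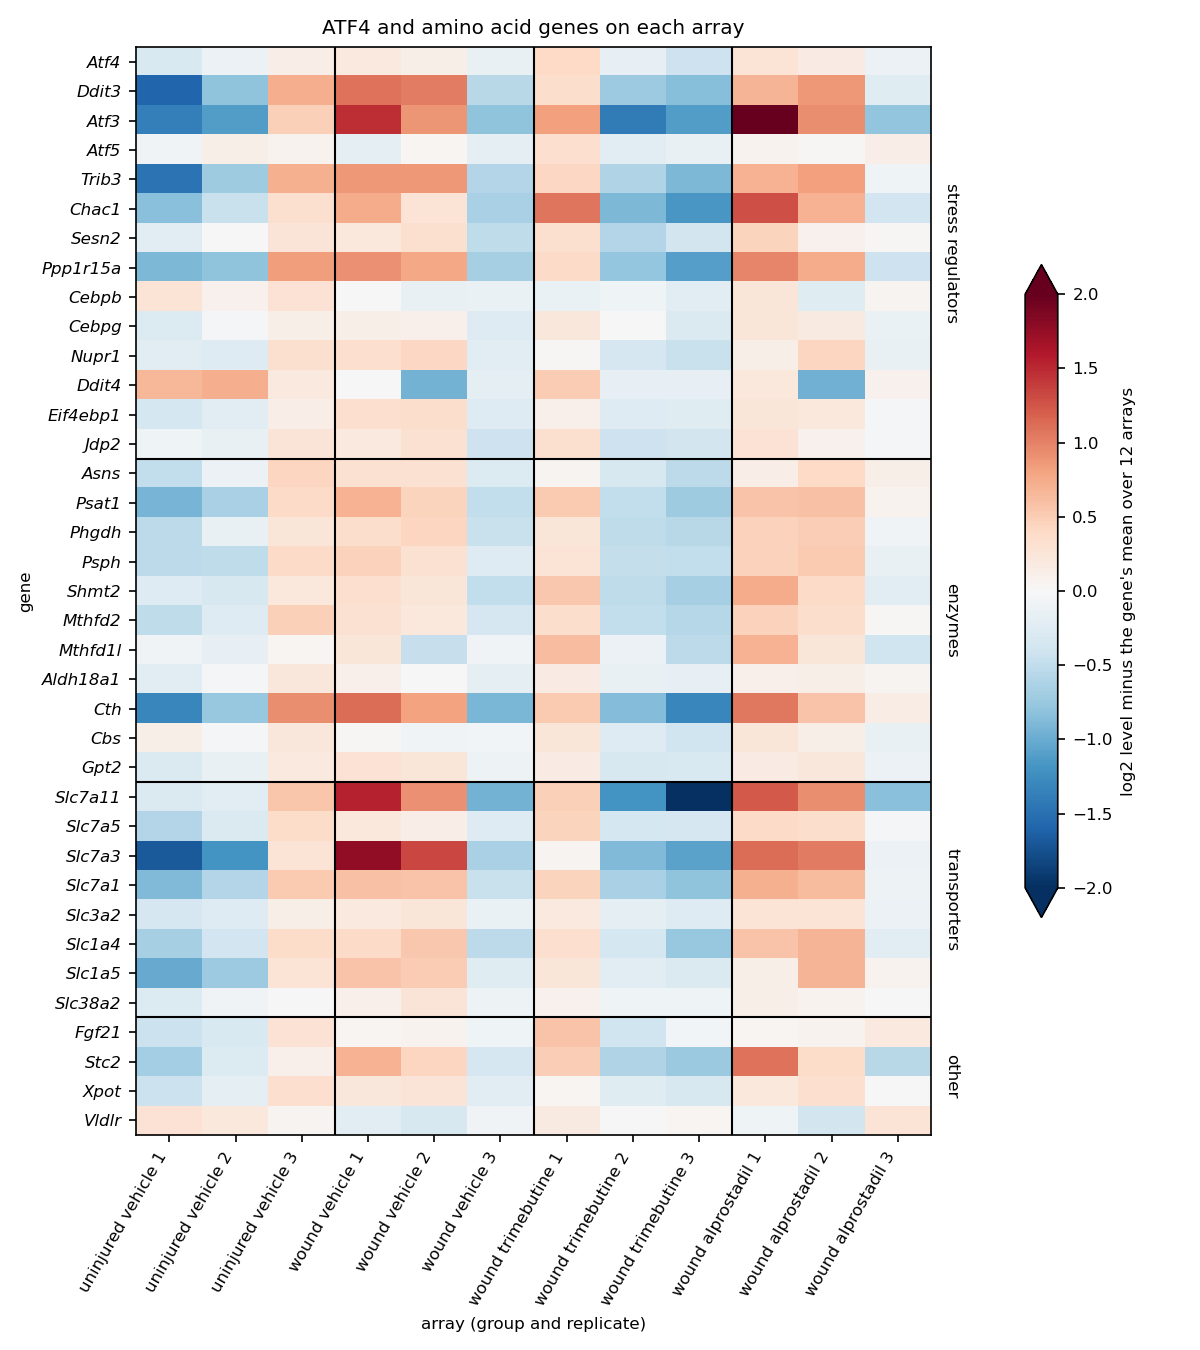
Levels of the 37 genes (rows, ordered by role) on the 12 arrays (columns, by group and replicate), coloured by the log2 level minus the mean of the gene over the 12 arrays; colours end at -2 and 2. In 27 of the 37 rows the same 6 columns are the 6 highest, and each of the 4 groups contains columns of both kinds.

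Read within groups, uninjured vehicle replicate 3 was the highest of its group for 34 of 37 genes, against 36.8% of all genes tested. Wound vehicle replicate 3 was the lowest of its group for 31 (42.2% of all genes). Wound trimebutine replicate 1 was the highest of its group for 36 (45.6% of all genes), and wound alprostadil replicate 3 the lowest for 32 (38.1% of all genes). All 4 held together for 30 of the 37 genes and for 11.1% of all genes tested.

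The central regulators followed this order with very different reach. Atf4 itself, whose protein is set largely by translation, was at 9.76, 9.95 and 10.20 in uninjured vehicle, 10.26, 10.19 and 9.92 in wound vehicle, 10.47, 9.91 and 9.65 in wound trimebutine, and 10.35, 10.23 and 9.96 in wound alprostadil (replicates 1, 2 and 3 here and below). Its whole range was 0.82. Ddit3, which encodes the pro-apoptotic factor CHOP, was at 9.49, 10.28 and 11.80 in uninjured vehicle, 12.16, 12.10 and 10.52 in wound vehicle, 11.43, 10.35 and 10.23 in wound trimebutine, and 11.76, 11.95 and 10.83 in wound alprostadil. The range of Ddit3 was 2.67, and uninjured vehicle held both its lowest value and 1 of its 5 highest.

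Trib3 encodes a pseudokinase that feeds back on ATF4 and blunts Akt signalling. Its levels were 7.84, 8.62 and 10.04 in uninjured vehicle, 10.19, 10.19 and 8.74 in wound vehicle, 9.74, 8.72 and 8.43 in wound trimebutine, and 10.01, 10.15 and 9.24 in wound alprostadil. The 3 arrays of every group overlapped with those of every other group. Atf3, a stress-induced repressor and partner of the pathway, had the third widest range (3.42): 7.67, 7.93 and 9.51 in uninjured vehicle, 10.51, 9.92 and 8.24 in wound vehicle, 9.86, 7.64 and 7.93 in wound trimebutine, and 11.07, 9.97 and 8.26 in wound alprostadil. Its highest value was on wound alprostadil replicate 1, the array with high macrophage markers, whose part in that value was not tested.

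Chac1, an enzyme that breaks down glutathione, was at 8.19, 8.57 and 9.34 in uninjured vehicle, 9.77, 9.30 and 8.38 in wound vehicle, 10.09, 8.13 and 7.86 in wound trimebutine, and 10.31, 9.71 and 8.64 in wound alprostadil. Trimebutine replicates thus spanned 2.24, more than the whole range of Atf4. Sesn2, a leucine-sensing brake on the growth kinase complex mTORC1, was at 9.97, 10.16 and 10.44 in uninjured vehicle, 10.38, 10.50 and 9.68 in wound vehicle, 10.50, 9.60 and 9.81 in wound trimebutine, and 10.62, 10.27 and 10.20 in wound alprostadil. Ppp1r15a (GADD34), the phosphatase subunit that reverses eIF2 phosphorylation, ranged from 8.33 to 10.42 in the same order of arrays. Eif4ebp1, a repressor of cap-dependent translation, ranged from 11.87 to 12.57, and Jdp2, a further basic leucine zipper factor, from 9.54 to 10.28.

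Nupr1, a small chromatin protein of the stress response, was at 10.93, 10.90 and 11.47 in uninjured vehicle, 11.49, 11.56 and 10.92 in wound vehicle, 11.17, 10.82 and 10.71 in wound trimebutine, and 11.26, 11.58 and 11.00 in wound alprostadil. Its 2 lowest arrays were both of wound trimebutine, and the third trimebutine array lay above both low arrays of uninjured vehicle.

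Some stress regulators did not share the order. Ddit4 (REDD1), another inhibitor of mTORC1, was at 10.24, 10.29 and 9.77 in uninjured vehicle, 9.57, 8.63 and 9.39 in wound vehicle, 10.08, 9.41 and 9.41 in wound trimebutine, and 9.79, 8.61 and 9.66 in wound alprostadil. Its lowest arrays, wound vehicle replicate 2 and wound alprostadil replicate 2, were among the highest for Trib3. Cebpb, a C/EBP partner of ATF4, was at 10.65, 10.47 and 10.67 in uninjured vehicle, 10.39, 10.24 and 10.24 in wound vehicle, 10.25, 10.29 and 10.17 in wound trimebutine, and 10.63, 10.13 and 10.44 in wound alprostadil. It was the 1 gene of the 37 with more than 50% of its variance, 57.9%, between the groups rather than inside them, where 16.7% of all genes tested had more than 50%. Atf5, a factor related to ATF4 and itself under translational control, was at 10.92, 11.10 and 11.06 in uninjured vehicle, 10.80, 11.03 and 10.81 in wound vehicle, 11.32, 10.79 and 10.84 in wound trimebutine, and 11.06, 11.01 and 11.13 in wound alprostadil. Its highest and its lowest array were both of wound trimebutine, out of the common order. Cebpg, another C/EBP partner and 1 of the 3 narrowest genes, followed the order within 0.53: 9.62, 9.86 and 10.01 in uninjured vehicle, 10.00, 9.99 and 9.63 in wound vehicle, 10.12, 9.89 and 9.61 in wound trimebutine, and 10.14, 10.08 and 9.76 in wound alprostadil.

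**Figure D2:**
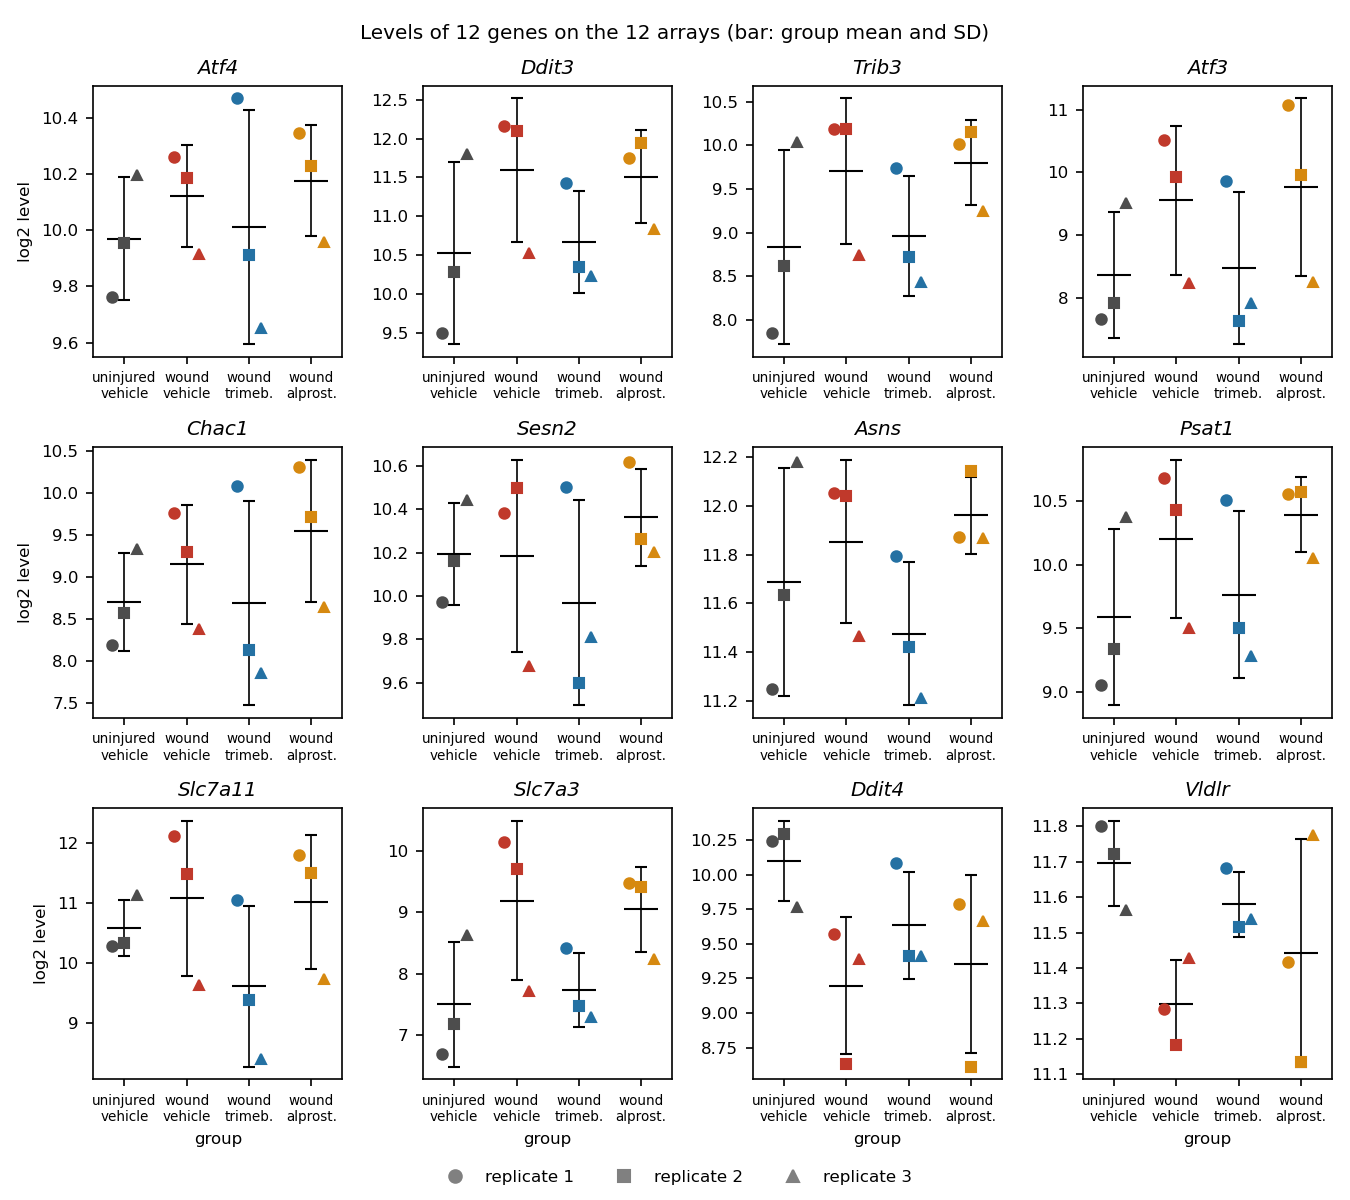
Log2 level (vertical axis, scale differing between panels) of 12 genes on the 12 arrays; symbols are replicates 1 to 3, the horizontal bar is the group mean and the whiskers are 1 SD (n = 3). Wound trimebutine replicate 1 is the highest of its group in every panel, Ddit3 and Trib3 of uninjured vehicle reach from their lowest values (9.49 and 7.84) to 11.80 and 10.04, and Ddit4 and Vldlr have wound vehicle arrays that all lie below the uninjured vehicle arrays.

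Among the enzymes, those of serine synthesis kept the order closely. Psat1, an aminotransferase of serine synthesis, was at 9.05, 9.33 and 10.38 in uninjured vehicle, 10.68, 10.43 and 9.50 in wound vehicle, 10.51, 9.50 and 9.28 in wound trimebutine, and 10.55, 10.57 and 10.05 in wound alprostadil. Phgdh, the first enzyme of that pathway, was at 8.19, 8.56 and 8.96 in uninjured vehicle, 9.06, 9.14 and 8.27 in wound vehicle, 8.94, 8.20 and 8.15 in wound trimebutine, and 9.17, 9.20 and 8.63 in wound alprostadil. For both genes wound alprostadil replicate 3 lay between the high and the low arrays. Psph, the last enzyme of serine synthesis, ranged from 7.81 to 8.86, and the mitochondrial folate enzymes Shmt2 and Mthfd2 from 11.15 to 12.56 and from 10.01 to 11.06.

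Asns, asparagine synthetase and a textbook ATF4 target, was at 11.25, 11.63 and 12.18 in uninjured vehicle, 12.05, 12.04 and 11.47 in wound vehicle, 11.79, 11.42 and 11.21 in wound trimebutine, and 11.87, 12.14 and 11.87 in wound alprostadil. All 3 trimebutine arrays lay below all 3 alprostadil arrays. Cth, which makes cysteine from cystathionine, had the widest range among the enzymes (7.85 to 10.28), and Cbs, the enzyme before it in the same route, stayed between 6.54 and 7.17. Cbs, Fgf21 and Mthfd1l, a further mitochondrial folate enzyme (8.64 to 9.87), were out of the common order, as were Asns and Aldh18a1. For Asns, wound alprostadil replicate 3 (11.87) lay above wound trimebutine replicate 1 (11.79). Aldh18a1, an enzyme of proline synthesis, had the narrowest range of all (0.45), at 11.06, 11.24 and 11.51 in uninjured vehicle, 11.39, 11.28 and 11.11 in wound vehicle, 11.45, 11.14 and 11.12 in wound trimebutine, and 11.39, 11.39 and 11.33 in wound alprostadil. Gpt2, a mitochondrial alanine aminotransferase, ranged from 9.65 to 10.26 and kept the order.

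The transporters held the widest ranges. Slc7a11, the cystine importer that supplies glutathione synthesis, was at 10.30, 10.35 and 11.14 in uninjured vehicle, 12.12, 11.50 and 9.63 in wound vehicle, 11.05, 9.39 and 8.40 in wound trimebutine, and 11.81, 11.51 and 9.74 in wound alprostadil. The range of 3.72 was the widest of the 37, and the dimmer second probe set of the gene had a range of 3.16. Slc7a3, a carrier of arginine and lysine, was at 6.69, 7.18 and 8.64 in uninjured vehicle, 10.15, 9.71 and 7.71 in wound vehicle, 8.42, 7.48 and 7.29 in wound trimebutine, and 9.48, 9.41 and 8.24 in wound alprostadil. Wound vehicle replicates 1 and 2 were its highest arrays, and wound vehicle replicate 3 lay inside the span of uninjured vehicle.

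Slc7a1, a related cationic carrier, ranged from 9.19 to 10.77. Slc7a5 and Slc3a2, the 2 chains of the large neutral amino acid exchanger, ranged from 11.43 to 12.47 and from 12.65 to 13.26. The neutral amino acid carriers Slc1a4 and Slc1a5 ranged from 9.63 to 11.07 and from 9.60 to 11.29, and all 5 genes kept the common order. Slc38a2 (SNAT2), a sodium-coupled glutamine and alanine carrier, was narrow at 12.08, 12.28 and 12.35 in uninjured vehicle, 12.45, 12.61 and 12.25 in wound vehicle, 12.45, 12.27 and 12.26 in wound trimebutine, and 12.48, 12.42 and 12.35 in wound alprostadil. Its order departed from the common one by a small margin.

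Of the remaining genes, Stc2, a secreted glycoprotein, ranged from 7.45 to 9.27 and Xpot, the exporter of tRNA from the nucleus, from 10.48 to 11.24, both in the common order. Fgf21, an endocrine signal of stressed liver, stayed between 6.35 and 7.34 and, with Cbs, was not above the array median on every array. Vldlr, a lipoprotein receptor, ran otherwise: 11.80, 11.72 and 11.57 in uninjured vehicle, 11.28, 11.18 and 11.43 in wound vehicle, 11.68, 11.52 and 11.54 in wound trimebutine, and 11.42, 11.13 and 11.77 in wound alprostadil. Uninjured vehicle was higher than wound vehicle on every array for this gene.

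Against this spread inside groups, no gene passed a test of the groups in the unweighted fit. In limma's F test across the 4 groups 0 of 37 genes passed at an adjusted p under 0.05 and 0 at an unadjusted p under 0.05, where 0.0152% and 7.89% of all genes tested did. With array weights, a fit that takes less from arrays far from their group, 27 of the 37 passed the F test beside 40.3% of all genes tested. The smallest p of the 37 was that of Cebpb, 0.0524 (adjusted p = 0.629, limma). The median SD inside groups was 0.41 for the 37 genes and 0.17 for all genes tested, and 34 of the 37 lay above the latter. The median share of variance between groups was 29.1% for the 37 and 30.1% for all genes tested. For all 37 the widest range inside a group exceeded the largest gap between group means, which was so for 93.3% of all genes tested.

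Wound vehicle was compared with uninjured vehicle to ask what injury alone changed. Transporter mRNAs lay higher in wound vehicle in all 8 cases, with a median difference of 0.42, and the highest was Slc7a3 with 9.19 ± 1.30 against 7.50 ± 1.01 (SD, n = 3), a difference of 1.69 ± 0.68 (SE; limma adjusted p = 0.351). Ddit3 differed by 1.07 ± 0.63 and Slc1a5 by 0.76 ± 0.34 in the same direction. Lower in wound vehicle were Ddit4 (9.20 ± 0.50 against 10.10 ± 0.29), Vldlr (11.30 ± 0.12 against 11.70 ± 0.12) and Cebpb (10.29 ± 0.09 against 10.60 ± 0.11). Their differences were -0.90 ± 0.35, -0.40 ± 0.15 and -0.31 ± 0.12 (SE; limma adjusted p = 0.326, 0.315 and 0.332).

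None of these differences passed: 0 of 37 genes did at an adjusted p under 0.05 (0.0456% of all genes tested) and 5 at an unadjusted p under 0.05 (13% of all genes tested). Of the 5, Slc7a3 and Slc1a5 were higher (4.75% of all genes tested) and Ddit4, Vldlr and Cebpb lower (8.24%). Groups did not overlap for 3 genes, those last 3 (18% of all genes tested), with 3 lower (10%) and 0 higher (8.01%). The 37 genes had a median difference of 0.23, with 29 above 0, against a median of 0.0069 and 51.4% above 0 over all genes. By role the medians were 0.19 for stress regulators (10 of 14 above 0), 0.17 for enzymes (8 of 11) and 0.17 for the other 4 genes.

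Single arrays moved that median. It was 0.12 without uninjured vehicle replicate 1, 0.41 without uninjured vehicle replicate 3, and 0.14, 0.15 and 0.37 when replicate 1, 2 or 3 of wound vehicle was omitted. The fit with array weights called 21 of the 37 (19 higher, 2 lower) and 38% of all genes tested. Its weights were 0.68, 5.99 and 0.49 in uninjured vehicle and 2.70, 0.98 and 0.32 in wound vehicle (replicates 1 to 3). The weighted comparison thus leaned on uninjured vehicle replicate 2, low in the common order, and wound vehicle replicate 1, high in it. Without replicate 3 of both groups, an omission chosen after seeing the data, 5 genes passed, all higher in wound vehicle (Ddit3, Trib3, Eif4ebp1, Slc7a3 and Slc1a5), beside 8.52% of all genes tested. In the same comparison all 15 mitosis genes lay lower in wound vehicle (median -0.64) and all 6 macrophage markers tested lay higher (median 1.06), none past the threshold. Their part in the differences was not tested.

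Wound trimebutine was compared with wound vehicle to ask what that drug changed in spheres from wounds. With trimebutine 32 of the 37 genes lay lower, among them all 8 transporters (median -0.38) and 10 of 11 enzymes (median -0.30). Slc7a3 was at 7.73 ± 0.60 against 9.19 ± 1.30 (SD, n = 3), a difference of -1.46 ± 0.68 (SE; limma adjusted p = 0.539), and Slc7a11 differed by -1.47 ± 0.80. Nupr1 was at 10.90 ± 0.24 against 11.33 ± 0.35, a difference of -0.43 ± 0.23, and Vldlr was higher, at 11.58 ± 0.09 against 11.30 ± 0.12, a difference of 0.28 ± 0.15 (limma adjusted p = 0.545 for both). Ddit4 (0.44 ± 0.35) also lay higher.

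In limma 0 of 37 passed at an adjusted p under 0.05 (0% of all genes tested), and 0 at an unadjusted p under 0.05 (9.43% of all genes tested, 6.38% higher and 3.05% lower). Vldlr, higher with trimebutine, was the 1 gene whose groups did not overlap, as for 15.8% of all genes tested (9.21% higher, 6.63% lower). The median difference was -0.30 against -3.6e-05 for all genes, and stress regulators had one of -0.25 with 12 of 14 below 0.

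Omitting replicate 1 or replicate 2 of wound vehicle gave a median of -0.19 in either case. Omitting its replicate 3 gave -0.50, and without wound trimebutine replicates 1 and 3 it was -0.53 and -0.14. With array weights 25 of 37 were called, all lower, beside 30.7% of all genes tested, and the median was -0.65. The weights of wound trimebutine were 0.45, 4.69 and 1.41 (replicates 1 to 3). That fit thus leaned on wound trimebutine replicate 2, low in the common order, and wound vehicle replicate 1 (weight 2.70), high in it. In the unweighted fit all 15 mitosis genes lay higher with trimebutine (median 0.71) and all 6 macrophage markers lower (median -1.21), and their part in the differences was not tested.

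Wound alprostadil was compared with wound vehicle in the same way, and the 2 groups lay close. The differences of the 37 genes ran from -0.14 to 0.40 with a median of 0.11, against 0.031 for all genes, and 30 were above 0 where 59.4% of all genes were. Atf5 was at 11.07 ± 0.06 against 10.88 ± 0.13 (SD, n = 3), Vldlr at 11.44 ± 0.32 against 11.30 ± 0.12, and Cebpb at 10.40 ± 0.25 against 10.29 ± 0.09. These 3 had the smallest p of the 37, with differences of 0.19 ± 0.14, 0.14 ± 0.15 and 0.11 ± 0.12 (SE; limma adjusted p = 0.998 for each). Ddit3 differed by -0.082 ± 0.63, Trib3 by 0.098 ± 0.59, and Chac1 by 0.40 ± 0.63, and for each the SE exceeded the difference.

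In limma 0 of 37 passed (0% of all genes tested), 0 had an unadjusted p under 0.05 (2.75% of all genes tested, 1.07% higher and 1.68% lower), and 0 were without overlap (5.9% of all genes tested, 2.78% higher and 3.12% lower). The median turned to -0.0996 without wound vehicle replicate 3 and to -0.032 with array weights. Omitting replicate 1 or 2 of wound vehicle gave 0.25 or 0.17, and omitting replicate 1 or 3 of wound alprostadil gave 0.019 or 0.26. Same-numbered arrays of these 2 groups deviated together. Within the 3 numbers the median difference was 0.083, 0.035 and 0.26 for the 37 genes and 0.029, 0.020 and 0.017 for all genes tested. Of the 37 genes 13 were higher in all 3 and 1 lower in all 3, and the matching shares of all genes tested were not counted. With the replicate number as a block in a fit of these 2 groups, 0 of 37 passed (limma adjusted p at least 0.92), and Chac1 and Shmt2 had an unadjusted p under 0.05 (3.71% of all genes tested). The pairing was read from these same arrays, and the block fit, added after seeing the data, had 2 residual degrees of freedom. All 15 mitosis genes lay higher with alprostadil (median 0.60), as did 5 of 6 macrophage markers (median 0.69). Macrophage markers had mean levels of 11.74, 6.41 and 6.99 in wound alprostadil (replicates 1 to 3), against 7.57, 8.25 and 7.22 in wound vehicle. Mitosis genes had medians of level minus gene mean of 1.00, -0.86 and 0.14, against -0.81, -1.17 and 0.49. The part of either list in the differences was not tested.

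The 2 drugs were also set against each other. Lower with trimebutine than with alprostadil were 35 of 37 genes, all 11 enzymes (median -0.51) and all 8 transporters (median -0.49) among them. Asns was at 11.48 ± 0.29 with trimebutine and 11.96 ± 0.16 with alprostadil (SD, n = 3), and Slc7a3 at 7.73 ± 0.60 and 9.04 ± 0.70. Phgdh was at 8.43 ± 0.44 and 9.00 ± 0.32. Their differences of -0.48 ± 0.25, -1.31 ± 0.68 and -0.57 ± 0.30 (SE) had the smallest p of the 37, and each had a limma adjusted p of 0.752.

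Of the 37, 0 passed at an adjusted p under 0.05 (0% of all genes tested) and 0 at an unadjusted p under 0.05 (4.42% of all genes tested, 2.5% higher and 1.92% lower). Asns, lower with trimebutine, was the 1 gene without overlap of the groups, as for 11.2% of all genes tested (5.21% higher, 6.03% lower). The median was -0.38 against -0.015 for all genes, of which 46.2% lay above 0. Without wound alprostadil replicate 1, the array of high macrophage markers, it was -0.30 with 34 of 37 below 0, and with array weights 0 of 37 and 0% of all genes were called.

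Same-numbered arrays of the 2 drug groups also deviated together. Within the 3 numbers the median difference was -0.10, -0.72 and -0.33 for the 37 genes and -0.034, -0.010 and -0.0080 for all genes tested. Of the 37, which mostly moved together, 26 were lower with trimebutine in all 3 and 0 higher in all 3. The matching shares of all genes tested were not counted. With the replicate number as a block in a fit of these 2 groups, 20 of 37 had an unadjusted p under 0.05, all lower (13.3% of all genes tested), and 0 passed (smallest limma adjusted p = 0.333). The pairing was read from these same arrays, and the labels state no shared source. The block fit was added after seeing the data and had 2 residual degrees of freedom, so its unadjusted p-values are descriptive. The smallest p in that fit were those of Slc7a3 (-1.31 ± 0.22, SE), Cth (-1.14 ± 0.22) and Slc7a11 (-1.41 ± 0.28). All 15 mitosis genes lay higher with trimebutine than with alprostadil (median 0.28) and all 6 macrophage markers lower (median -1.74). Macrophage markers had mean levels of 7.22, 6.43 and 6.35 with trimebutine (replicates 1 to 3), against 11.74, 6.41 and 6.99 with alprostadil. Mitosis genes had medians of level minus gene mean of 0.79, 0.11 and 0.16, against 1.00, -0.86 and 0.14. The part of either list in the differences was not tested. This comparison and the one before it share the alprostadil arrays, and both drug comparisons share the wound vehicle arrays, so the 4 sets of differences are not independent.

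**Figure D3:**
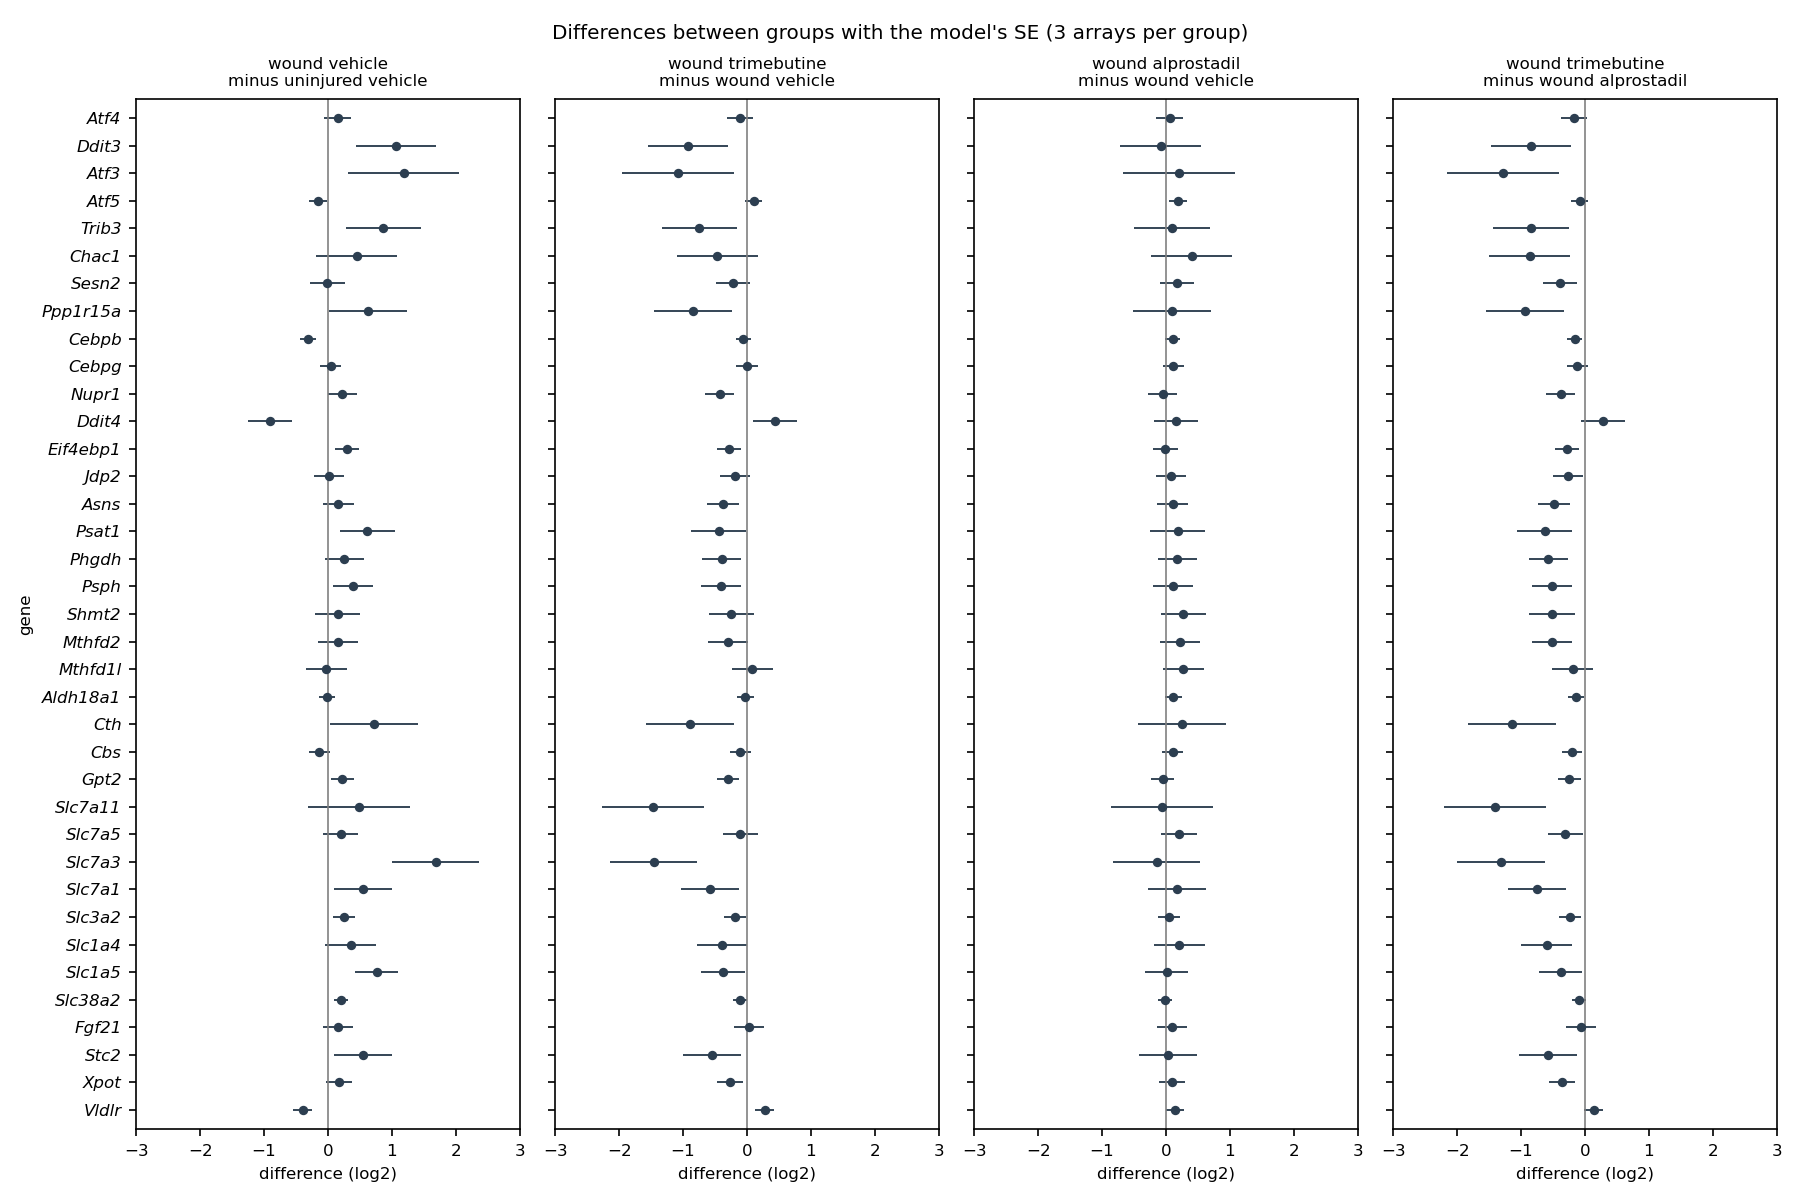
Difference of group means (horizontal axis, log2 units) for the 37 genes (rows, ordered by role) in the 4 comparisons; points are the fitted differences and bars are 1 SE of the model on either side (3 arrays per group). No gene passed in any of the 4; Slc7a3 has the largest difference for injury (1.69), and the alprostadil differences lie between -0.14 and 0.40.

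Other genes of the pathway were read from lists of their own. Cytosolic tRNA synthetases, which charge tRNAs with amino acids and are in part ATF4 targets, had 18 genes tested of 20 listed. In none of the 4 comparisons did a synthetase pass (0 of 18 in limma, with 0 at an unadjusted p under 0.05). Their medians were 0.12 for injury, -0.15 for trimebutine, 0.078 for alprostadil and -0.22 for trimebutine against alprostadil. Of all genes tested, 13%, 9.43%, 2.75% and 4.42% had an unadjusted p under 0.05 in that order. The shares passing at an adjusted p under 0.05 were 0.0456% for injury and 0% for the others. The common array order held in 11 of the 18. Wars, the tryptophan enzyme, which is also known as an interferon target, had the widest range: 10.81, 10.60 and 12.07 in uninjured vehicle, 12.33, 12.49 and 11.02 in wound vehicle, 11.70, 10.85 and 10.74 in wound trimebutine, and 12.28, 12.21 and 11.04 in wound alprostadil. The composite letters were in 5 of the 13 synthetases in the promoter table.

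The genes that send the signal had a median range of 0.49, against 0.58 for all genes tested and 1.05 for the 37 genes. They are the eIF2 kinases (Eif2ak1 to Eif2ak4), the subunits of the exchange factor eIF2B and their regulators, with 12 genes tested of 13 listed. Their ranges ran from 0.26 to 1.02, and 0 of the 12 kept the common array order. None passed in the 4 comparisons (0 of 12 in limma). At an unadjusted p under 0.05 there was 1 for injury, Eif2ak2, lower in wound vehicle with a difference of -0.46 (13% of all genes tested, 8.24% lower). There were 0 for trimebutine (9.43%), alprostadil (2.75%) and trimebutine against alprostadil (4.42%). Eif2ak4 (GCN2), the kinase that senses uncharged tRNA, lay between 8.80 and 9.17 on all 12 arrays, and Eif2ak3 (PERK), the kinase of the endoplasmic reticulum, between 9.77 and 10.26. Kinase mRNA says nothing of kinase activity, which was not measured. The composite letters were in 0 of the 10 genes of this list in the promoter table.

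Chaperones and sensors of the endoplasmic reticulum, the neighbouring arm of the response, kept the common array order in 18 of 20 genes tested. Hspa5 (BiP), the main chaperone, was at 11.07, 11.25 and 12.66 in uninjured vehicle, 12.74, 12.63 and 11.34 in wound vehicle, 11.94, 11.38 and 11.27 in wound trimebutine, and 12.45, 12.58 and 11.60 in wound alprostadil. On wound trimebutine replicate 1 it stood between the high and the low arrays. Over the list the median of level minus gene mean was -0.01 on that array, where the 37 genes had 0.33, and 0.49 to 0.58 on the other 5 high arrays. None of the 20 passed (0 in limma and 0 at an unadjusted p under 0.05 in each of the 4 comparisons). Of all genes tested, 13%, 9.43%, 2.75% and 4.42% had such an unadjusted p for injury, trimebutine, alprostadil and trimebutine against alprostadil. In the same order the medians of the list were 0.37, -0.53, -0.045 and -0.46. The composite letters were in 1 of the 18 of these genes in the promoter table.

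A further list of 22 tested genes that ATF4 is known to reach among other inputs was mixed, and the common array order held in 5. None passed (0 of 22 in limma). At an unadjusted p under 0.05, 2 were higher and 1 lower for injury (4.75% and 8.24% of all genes tested). For trimebutine 3 were higher and 1 lower (6.38% and 3.05%). There were 0 for alprostadil (2.75%) and for trimebutine against alprostadil (4.42%). Adm2, a secreted peptide of the calcitonin family, was at 7.73, 7.95 and 8.60 in uninjured vehicle, 9.38, 9.18 and 8.22 in wound vehicle, 9.94, 8.21 and 7.86 in wound trimebutine, and 9.89, 8.90 and 8.24 in wound alprostadil. Txnip, a thioredoxin-binding protein that follows glucose supply, had the widest range of the list (5.61), from 5.87 on wound alprostadil replicate 2 to 11.48 on wound trimebutine replicate 3. Slc38a1, a glutamine carrier, was at 6.11 and 6.97 on uninjured vehicle replicates 1 and 2 and 7.40 on wound trimebutine replicate 1, and between 8.39 and 9.59 on the other 9 arrays. The composite letters were in 1 of the 16 genes of this further list in the promoter table, where 4.51% of all genes of that table held them.

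**Figure D4:**
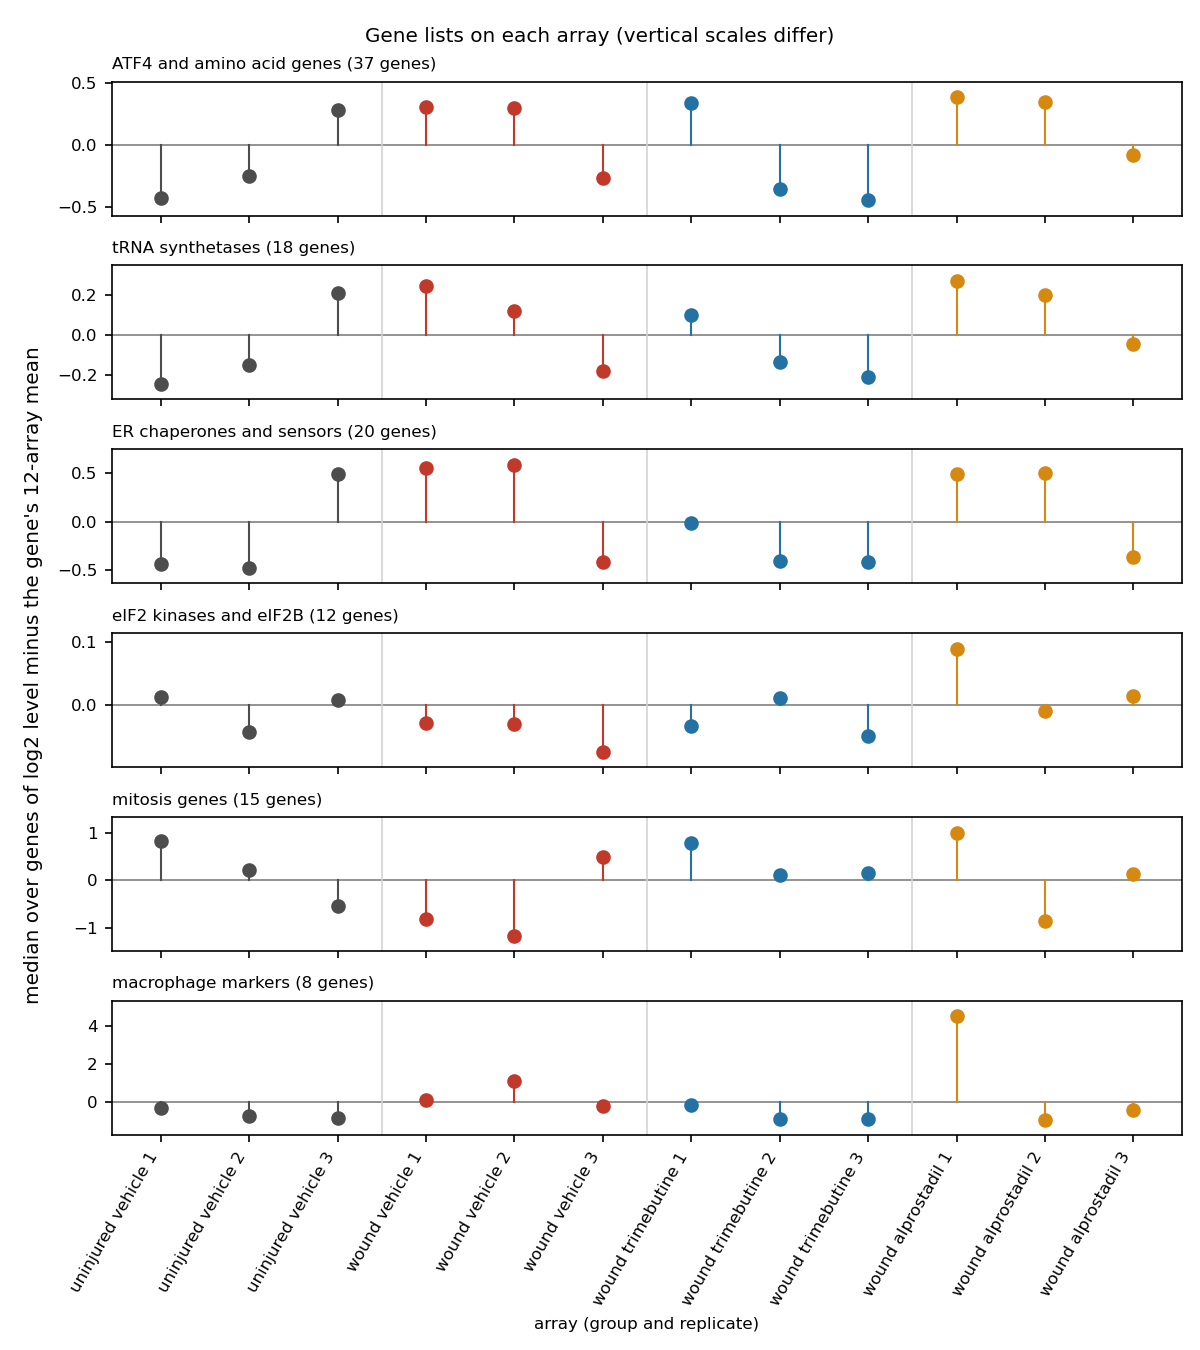
Median over the genes of a list of the log2 level minus the mean of each gene over the 12 arrays (vertical axis, scale differing between panels), for each array (horizontal axis, coloured by group). The 37 genes, tRNA synthetases and chaperones are high on nearly the same arrays, eIF2 kinases and eIF2B stay within 0.09 of 0, mitosis genes are high on 2 and low on 4 of the 6 arrays with high ATF4 genes, and macrophage markers reach 4.49 on wound alprostadil replicate 1.

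Array by array, mitosis genes (15 genes) had medians of -0.55, -0.81, -1.17 and -0.86 on uninjured vehicle replicate 3, wound vehicle replicates 1 and 2 and wound alprostadil replicate 2. On wound trimebutine replicate 1 and wound alprostadil replicate 1, where the 37 genes were as high, they had 0.79 and 1.00, near the 0.83 of uninjured vehicle replicate 1, where the 37 genes were low. Mki67, a marker of cycling cells, was at 7.28 and 7.11 on wound vehicle replicates 1 and 2 and at 9.55 on replicate 3. Macrophage markers (8 of 8 matched) had a mean level of 11.74 on wound alprostadil replicate 1 and of 6.35 to 8.25 on the other 11 arrays, 6.61 and 6.41 among them on uninjured vehicle replicate 3 and wound alprostadil replicate 2. By group their mean level ran from 6.61 to 7.24 in uninjured vehicle, 7.22 to 8.25 in wound vehicle, 6.35 to 7.22 in wound trimebutine and 6.41 to 11.74 in wound alprostadil. Of the 8 markers 2, Lyz2 and Cd68, lay above the array median on all 12 arrays: in uninjured vehicle Lyz2 was at 10.74, 8.92 and 8.46 and Cd68 at 8.61, 7.96 and 7.95. Adgre1 and Ptprc were at most 5.28 and 5.21 there, and 11.12 and 10.44 on wound alprostadil replicate 1. The part of cell cycle and of macrophages in the levels of the 37 genes was not tested.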

How the data were processed

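RNA of 12 arrays (Mouse Gene 2.0 ST, 400 ng of total RNA each) was analysed. The deposited values are log2 expression per probe set, which the authors obtained by RMA with oligo, an R package, as the submitters' processing notes list. No version is given in the sources used here. Of 41345 probe sets, 23521 had 1 symbol in the platform annotation, 1814 several and 16010 none; only the first were used. The brightest probe set per symbol was kept (22180 genes), and a gene was tested if it exceeded the median of an array on 3 or more of the 12 (13153 genes). All 4 groups entered 1 model in limma 3.58.1 (R 4.3.3) with 8 residual degrees of freedom and no covariate. P-values are two-sided and adjusted by Benjamini-Hochberg over all genes tested, with a threshold of 0.05.

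The members and lists were chosen with earlier results of these data known, so no set was tested. Per-array values are given for 10 preset genes (Gdf15 unmatched), the 3 widest and 3 narrowest ranges, and the 3 smallest p of each comparison. Wars, Hspa5, Adm2, Txnip, Slc38a1, Eif2ak2, Eif2ak3, Eif2ak4 and Mki67 were named after their values were seen. P-values measure the spread between isolates, whose number limits the precision. Replicate numbers carry no stated shared source in the labels; by the correlation of deviations from group means (over 0.1 in all 3 pairs) they paired wound alprostadil with wound vehicle (0.19, 0.43 and 0.62) and with wound trimebutine (0.57, 0.22 and 0.42), and not the other compared groups. Alternatives were the mean of probe sets, 2 other filters, median centring, cyclic loess, array weights, another variance model, fitting only the groups compared, a replicate block, another threshold and leaving out each array; a block within the groups compared and leaving out a number in both were added after seeing the data. Figures used Python 3.11.15 and matplotlib 3.10.9.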

Additional observations from a re-analysis of the deposited data

How the results depend on the processing

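The count of 37 genes passing stayed at 0 in each of the 4 comparisons and in the F test under the other probe set rule, both filters, median centring, cyclic loess, the other variance model, the fit of only the groups compared (not run for the F test), a threshold of 0.1 (not run for the F test), and without each of the 12 arrays in turn. Array weights changed it: 21 genes for injury (38% of all genes tested), 25 for trimebutine (30.7%) and 27 in the F test (40.3%). It stayed at 0 for alprostadil and for the 2 drugs against each other (0% of all genes tested in both). The weights, from 0.30 to 5.99, come from the same arrays. The largest were those of uninjured vehicle replicate 2 (5.99), wound trimebutine replicate 2 (4.69) and wound vehicle replicate 1 (2.70). In the weighted fit the trimebutine median was -0.65, and Cebpb for alprostadil turned to -0.067 (the median over the 37 genes was -0.032). Over all 4 groups the replicate numbers did not pair the arrays throughout: deviations from the group means correlated above 0.1 in 11 of 18 same-numbered pairs (median 0.22, lowest -0.64) and in 13 of 36 others (median -0.11). A replicate block over all groups left 0 genes passing in each comparison and in the F test. At an unadjusted p under 0.05 it gave 4 in place of 5 for injury and 1 in place of 0 for trimebutine. The share of all genes tested with such a p was not counted for this fit. A replicate block in the 2 groups compared, added after seeing the data, also left 0 passing in each comparison. At an unadjusted p under 0.05 were 3, 12, 2 and 20 genes for injury, trimebutine, alprostadil and the drugs against each other. In the same order, 7.17%, 12.2%, 3.71% and 13.3% of all genes tested had such a p in that fit. Each of these fits had 2 residual degrees of freedom.

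Leaving out single arrays gave medians of 0.12 to 0.41 for injury, -0.53 to -0.14 for trimebutine, -0.0996 to 0.26 for alprostadil and -0.57 to -0.29 for trimebutine against alprostadil. Leaving out 1 number in both groups, also added, gave medians of -0.055 to 0.61, -0.39 to -0.12, 0.054 to 0.15 and -0.53 to -0.26 in that order; without replicate 3 the injury comparison called 5 genes (8.52% of all genes tested), and the other such omissions called 0. For alprostadil Cebpb ran from -0.0061 to 0.24 and Vldlr from -0.023 to 0.30. All 12 omissions kept the direction of 27, 29, 9 and 30 of the 37 genes in the 4 comparisons in the order given. With 3 arrays a group and a median SD of 0.41 inside groups, small differences could not be resolved. Large ones did not pass either, among them 1.69 for Slc7a3 for injury and -1.47 for Slc7a11 for trimebutine. A count of 0 passing therefore does not show that the groups were alike.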
